A study of Mus musculus with 2 samples.

Results

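Midline thalamic nuclei bins were squares of brain section in which transcripts marking the midline nuclei of the thalamus lay together. They numbered 2762 of 222933 squares in all. Each square, or bin, was 16 µm wide and could hold parts of several cells. A bin was kept where it held at least 100 UMIs, the unique molecular identifiers that count captured RNA molecules once. Members were chosen by measured values of 3 genes. A bin was called a midline thalamic bin where the block of 3 by 3 bins around it held at least 3 UMIs of Gbx2 plus Nmbr and at least 10 UMIs of Calb2. The section taken 3 days after injury gave 1908 such bins of 119617 (1.60%, an area of 0.488 mm2), and the section taken 28 days after injury gave 854 of 103316 (0.827%, 0.219 mm2).

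The study followed brain injury in mice by controlled cortical impact (CCI), a piston blow to the exposed brain that here struck the right parietal lobe. Both animals were male C57Bl6 mice, labelled as aged 3 months and untreated. The study gives this age as that at the impact, so the animal of the later group was older when taken, and describes anaesthesia and pain relief at surgery. The first group was taken 3 days after CCI and the second 28 days after CCI, with 1 section each and no uninjured section in these spatial data. Sections of paraformaldehyde-fixed, paraffin-embedded brain were measured with Visium HD, in which pairs of probes for each transcript are captured on a spatially barcoded slide. With 1 section per time after injury, no test between groups was possible. Time after injury, age, animal, plane of section and library cannot be told apart.

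The midline nuclei of the thalamus, among them the paraventricular nucleus below the habenula and the rhomboid and reuniens nuclei further down, receive input from the hypothalamus and brainstem and project to prefrontal cortex, hippocampus, amygdala and nucleus accumbens. They are known for parts in arousal, stress and motivated behaviour. Their neurons are glutamatergic, and many carry calretinin, the calcium-binding protein that Calb2 encodes. Gbx2 is a homeobox factor of thalamic development that stays on in these nuclei, and Nmbr is the receptor of the peptide neuromedin B. The relay nuclei beside them carry sensory and motor signals to the cortex and mark with other genes, such as Prkcd and Tnnt1.

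Most members lay below the habenula in both sections. The line drawn between the sides ran through the median position of Gbx2, a gene of the rule, so distances from it describe the spread of the members and do not show a midline position. Their median was 144 µm at 3 days and 80 µm at 28 days. The lesion zone was the tissue rich in 6 phagocyte genes (Cd68, Lyz2, Ctsz, Lgals3, Cd52 and Laptm5), drawn only on the injured side of the line. The zone held 0 members in either section, and members of the opposite side could not fall in it. The nearest members were 285 µm from it at 3 days and 64 µm at 28 days, and the medians over all members were 745 and 671 µm. At 28 days the nearest member lay in a group of fewer than 50 touching members. Larger groups there came no nearer than 336 µm. The remaining bins, that is all other kept bins within 40 bins (640 µm) of a member, numbered 19848 and 21606, and 3.31% and 12.1% of them were in the lesion zone.

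**Figure D1:**
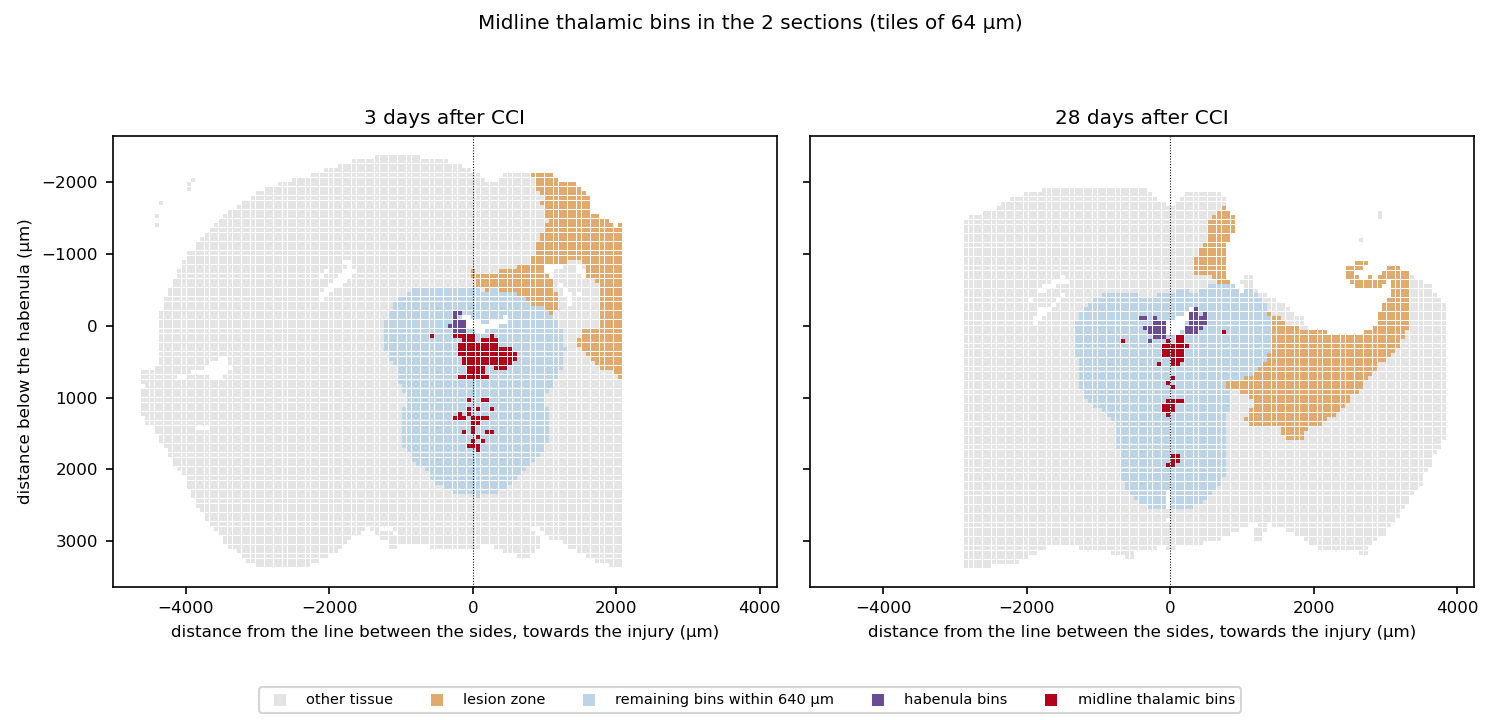
Position of the midline thalamic bins (red) in the 2 sections, as tiles of 64 µm, with distance from the line between the sides (horizontal, µm) and distance below the habenula (vertical, µm). The 1908 and 854 members form a dorsal cluster under the habenula bins (purple) and smaller groups further down, inside the remaining bins within 640 µm (blue) and outside the lesion zone (orange).

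The genes of the rule describe the choice and were not compared further. Gbx2 stood at 359 CPM (UMIs of the gene summed over the bins and scaled to a common total of all genes) in members and 50.5 in the remaining bins at 3 days, and at 405 and 72.1 at 28 days. Nmbr stood at 82.5 against 6.92 CPM at 3 days and 144 against 17.9 at 28 days. Calb2 stood at 2447 against 284 CPM and at 3134 against 457. Members just inside the rule, with exactly 3 UMIs of Gbx2 plus Nmbr in the block, numbered 403 and 182, and 442 and 216 bins with 2 UMIs fell just outside. Exactly 10 UMIs of Calb2 were held by 80 and 37 members, and 76 and 38 bins with 9 UMIs were left out.

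Members held more RNA per bin than their surroundings. Their median was 1538.5 UMIs at 3 days and 1098.5 at 28 days, against 1043 and 618 in the remaining bins. A rule of fixed UMI numbers finds more bins where depth is higher, and its part in the count of members was not tested. All kept bins of the 2 sections summed to 120484936 and 82294625 UMIs, with medians of 851 and 610 UMIs per bin.

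Thalamic marker genes that the rule did not use were mostly, but not all, higher in members. Tcf7l2, a Wnt pathway transcription factor of thalamic and habenular neurons, stood at 902 CPM in members and 384 in the remaining bins at 3 days, and at 1027 and 495 at 28 days. The log2 ratio was 1.23 (95% interval 1.17 to 1.29) at 3 days and 1.05 (0.96 to 1.15) at 28 days. Slc17a6, the vesicular glutamate transporter VGLUT2 of thalamic neurons, had log2 ratios of 1.11 and 1.24. Foxp2, a forkhead transcription factor, stood at 183 against 29.7 CPM and at 208 against 56.0. Prox1 (0.20 and 0.63) and Zic1 (0.47 and 0.07) were less different. Lef1 and Rora, which mark much of the thalamus, were lower in members, with log2 ratios of -0.48 and -1.18 for Lef1 and -0.19 and -0.43 for Rora. Intervals are exact, and here and below cover counting error only, since the bins of a section are not replicates.

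Against all remaining bins, which include hypothalamus, choroid plexus, hippocampal edge and injured tissue, more genes were low than high in members at the settings used. At 28 days the order turned with a pseudocount of 5 UMIs (705 higher and 525 lower) and with no minimum of UMIs (3258 and 2272). At 3 days 240 of 13093 genes with at least 50 UMIs (1.83%) passed 2-fold upward in members and 1716 (13.1%) passed it downward. At 28 days 312 of 12610 (2.47%) were higher and 1779 (14.1%) lower. Of the 12584 genes with enough UMIs in both sections, 159 were at least 2-fold higher in both, of 209 at 3 days and 312 at 28 days. A further 1156 were at least 2-fold lower in both, of 1499 and 1761, and 1 gene went opposite ways. The log2 ratios of the 2 sections correlated across these genes with Pearson's r of 0.79 and Spearman's rho of 0.72. These values describe 2 animals, and genes are not independent replicates.

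To set the members against bins richer in thalamus, the remaining bins were narrowed to 9978 and 9775 bins. These had at least 3 UMIs of Tcf7l2 in their block and no habenula signature, a choice made after the values were seen. They are called thalamic bins here but were not thalamus alone, since Ttr, a choroid plexus gene, stood at 127 and 284 CPM in them. Tcf7l2 was left out of that comparison. Against these thalamic bins 293 of 11858 genes (2.47%) were at least 2-fold higher in members and 599 (5.05%) lower at 3 days. At 28 days 325 of 11060 (2.94%) were higher and 696 (6.29%) lower. The excess of low genes was thus smaller against the thalamic bins than against all surroundings. Of the thalamic bins, 5 at 3 days and 576 (5.89%) at 28 days lay in the lesion zone.

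Among genes with at least 200 UMIs over members and remaining bins in each section, 15 were named as the highest in both sections, led by Igkc and Nptxr. Nptxr encodes the neuronal pentraxin receptor, which gathers AMPA-type glutamate receptors at synapses. It reached 2254 CPM in members against 291 in the remaining bins at 3 days, and 2485 against 346 at 28 days. The log2 ratios were 2.96 (2.91 to 3.00) and 2.84 (2.78 to 2.91), and against thalamic bins 2.72 and 2.99. These ratios rested on 7026 and 2507 UMIs in members.

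Igkc, the constant region of the immunoglobulin kappa light chain, had the largest ratio of the 15. It held 261 and 113 UMIs in members, or 83.7 CPM against 6.57 in the remaining bins at 3 days and 112 against 10.9 at 28 days. The log2 ratios were 3.67 (3.38 to 3.97) and 3.37 (3.01 to 3.71), and against thalamic bins 3.59 and 2.72. Other genes of antibody-making cells were added after this value was seen. Cd79a, Cd79b, Ms4a1, Iglc1 and Iglc2 were at 0 UMIs in members of both sections, and Mzb1 at 2 and 0. The far larger sums of the remaining bins also held few UMIs of these genes. Cd79a had 12 and 1 there, Cd79b 14 and 7, Ms4a1 4 and 1, Iglc1 7 and 7, and Iglc2 9 and 4. The zeros in members therefore cannot show an absence at this depth. Jchain, the joining chain of antibodies, had 7 and 3 UMIs in members, 2.25 against 0.652 CPM at 3 days and 2.97 against 1.25 at 28 days, with log2 ratios of 1.84 (0.25 to 3.17) and 1.44 (-1.14 to 3.00). Ighm, the heavy chain of immunoglobulin M, was lower in members than in the remaining bins, at 17.0 against 46.8 CPM at 3 days and 7.93 against 52.2 at 28 days. Which transcripts the Igkc probes caught in these bins was not tested.

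Several of the 15 genes act at synapses, which is background and not a tested theme. Slc30a3, the transporter that loads zinc into synaptic vesicles, stood at 56.1 against 9.09 CPM and at 60.5 against 8.81. Against thalamic bins its log2 ratio was the largest of the 15 at 28 days, 4.47, and 3.28 at 3 days. Doc2b, a calcium sensor of transmitter release, had log2 ratios of 1.99 and 2.14 against the remaining bins. Syt10, a synaptotagmin, had 2.13 and 2.02. C1ql3, a secreted C1q-like protein of excitatory synapses, stood at 274 against 69.7 CPM at 3 days and at 340 against 48.0 at 28 days, log2 ratios of 1.98 and 2.83.

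The other named genes covered mitochondria, matrix, cytoskeleton and transcription. Mcub, the inhibitory subunit of the mitochondrial calcium uniporter, had log2 ratios of 2.54 and 2.49, and Maob, the monoamine oxidase of the outer mitochondrial membrane, 2.00 and 2.20. Maob counted 865 and 352 UMIs in members. Fbln1 (fibulin 1) and Col12a1 (a collagen), both genes of the extracellular matrix, had 2.22 and 2.87, and 1.94 and 2.15. Tuba8, an alpha-tubulin, had 2.14 and 2.57. Lypd6, a Ly6 family protein that acts on nicotinic receptors, had 2.15 and 2.32. Prrg4 had 2.21 and 2.47, Ldb2, a cofactor of LIM-domain transcription factors, 1.89 and 2.06, and Foxp2 2.62 and 1.90. All 15 genes were also higher in members than in thalamic bins, with Foxp2 at 28 days the nearest to 0 at 1.38.

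**Figure D2:**
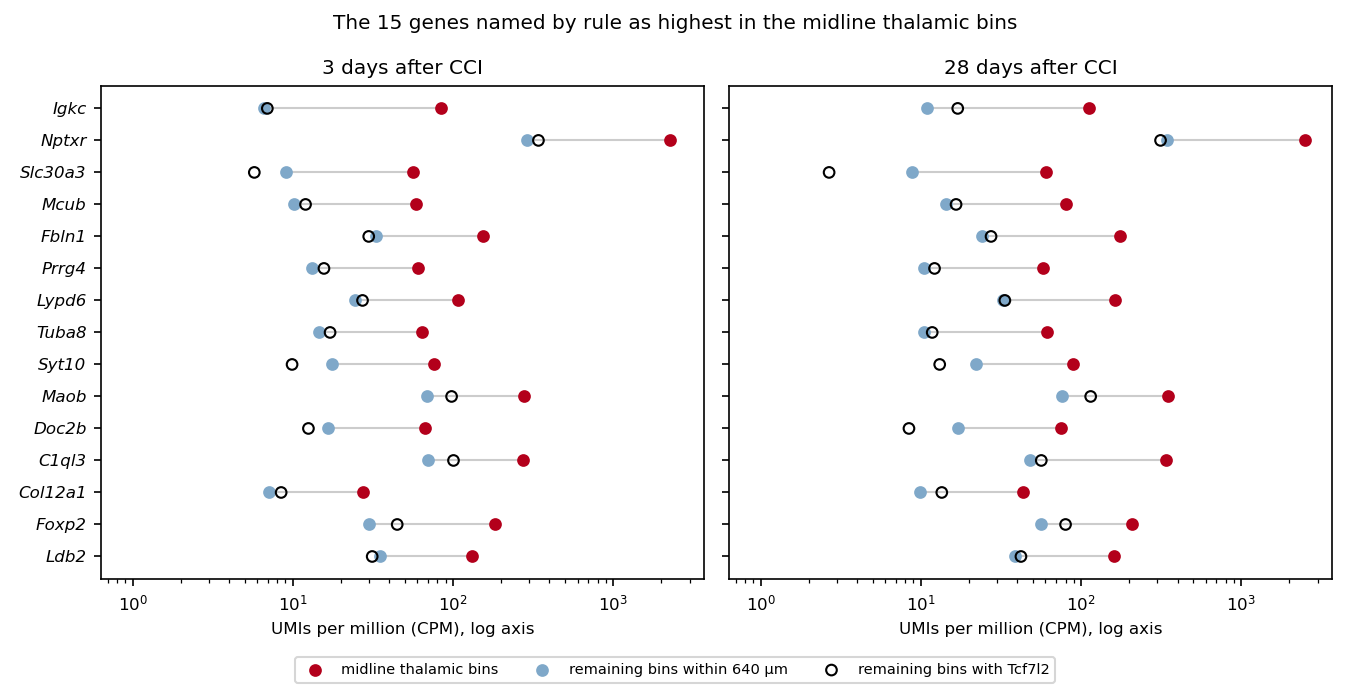
Level in CPM (log axis) of the 15 genes named as highest in midline thalamic bins (red), in the remaining bins within 640 µm (blue) and in the remaining bins with Tcf7l2 (open circles), for each section. Every red point lies to the right of both comparison points, as for Nptxr at 2254 CPM against 291 at 3 days.

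The 10 genes lowest in members of both sections were largely genes of the choroid plexus and ventricle wall. Ttr, the thyroxine carrier made by choroid plexus, stood at 60.0 CPM in members against 6756 in the remaining bins at 3 days and 63.4 against 6676 at 28 days. Tmem72, Myoc, Folr1 and Steap1 were at 0 UMIs in members of both sections. With a floor of 3 UMIs for the sum of members, Tmem72 was at least 33.8-fold lower at 3 days and at least 9.83-fold lower at 28 days, and Folr1, a folate receptor, at least 27.6-fold and 7.82-fold. Kl (klotho) had 2 and 1 UMIs in members, Ecrg4 4 and 0, Lbp 2 and 0, and Trh, a hypothalamic releasing hormone, 5 and 0. Chrm1, the M1 muscarinic receptor, had 1 UMI at 3 days against 23.5 CPM in the remaining bins, and 0 at 28 days against 36.2 CPM. Against thalamic bins these genes differed less. Ttr had log2 ratios of -1.08 and -2.15 there, and Chrm1 -4.87 at 3 days. Against the relay bins described below, Ttr was higher in members (1.52 and 1.10). The low values thus describe in large part the choroid plexus within 640 µm.

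For most of these genes levels were higher inside the clusters than at their edge, which is a description, since the rule fixed where the edge lies. Of the members, 917 and 326 had only members as neighbours, and 991 and 528 lay at an edge. Nptxr stood at 3046 CPM in the interior, 1285 at the edge and 606 in bins 1 to 2 bins away at 3 days, and at 3280, 1814 and 762 at 28 days. Igkc stood at 116, 44.2 and 17.7 CPM at 3 days and at 127.8, 98.6 and 31.3 at 28 days. From 21 to 40 bins away Igkc was at 5.12 and 4.81 CPM. C1ql3 went from 360 in the interior to 169 at the edge at 3 days and from 459 to 239 at 28 days. Col12a1 was about level at 3 days (28.0 inside and 26.4 at the edge), and Lypd6 at 28 days was lower inside, at 141 against 181 CPM.

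Tcf7l2 declined more gradually, from 973 CPM inside to 262 at 21 to 40 bins away at 3 days and, at 28 days, from 992 inside and 1056 at the edge to 308. Prkcd, a protein kinase C of relay neurons, went the other way, from 89.8 CPM in the interior to 203 at the edge and 424 at 3 to 5 bins away at 3 days, and from 36.8 to 203 and 696 at 28 days. Mbp, myelin basic protein, was 339 CPM inside and 1308 at 3 to 5 bins away at 3 days, and 256 and 891 at 28 days.

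**Figure D3:**
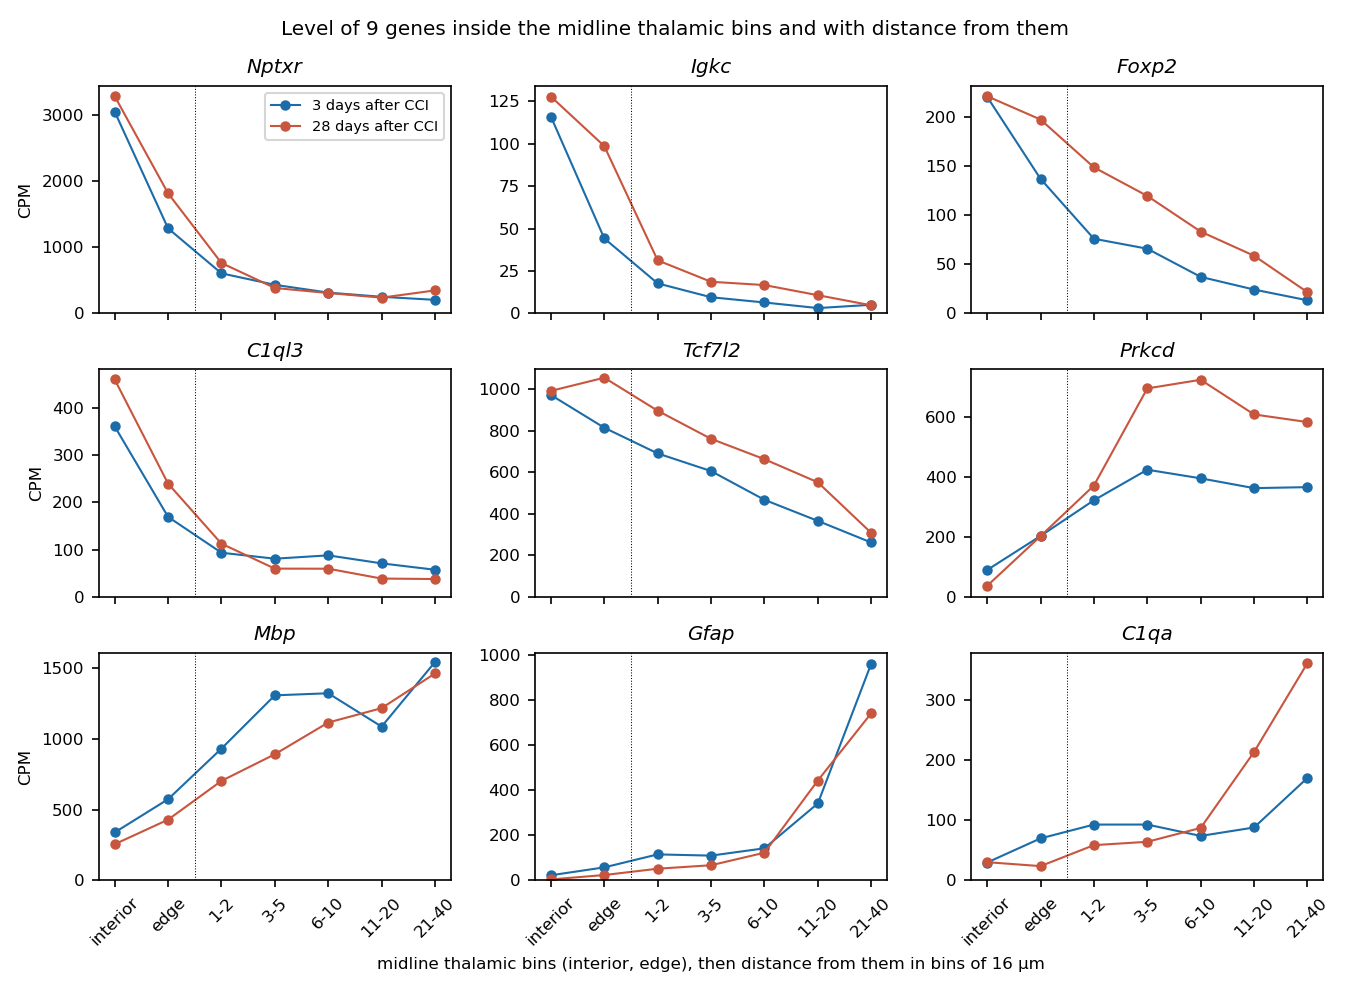
Level in CPM of 9 genes in members with only members around them (interior), in members at an edge, and in remaining bins by distance in bins of 16 µm, for the 3 days (blue) and 28 days (orange) sections. Nptxr, Igkc and C1ql3 drop within 1 to 2 bins of the members, Tcf7l2 declines slowly, and Prkcd, Mbp and Gfap are lowest inside. C1qa is lowest inside at 3 days (29.7 CPM) and at the edge at 28 days (23.7).

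Lists of genes with known roles were then read in the same way. Each list's median log2 ratio and counts past 2-fold stand beside a median over all genes of -0.10 at 3 days and -0.07 at 28 days (against thalamic bins -0.01 and 0.01), and beside the shares of all genes given above. In sums over bins, fewer cells of a type and less RNA per cell cannot be told apart.

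Of 15 thalamic transcription factors, 5 were at least 2-fold higher and 3 lower in members at 3 days (median 0.28), and 6 higher and 4 lower at 28 days (0.40). Lhx2 and Lhx9, LIM homeobox factors, were higher in both sections, with log2 ratios of 1.57 and 1.86 for Lhx2 and of 1.77 and 1.49 for Lhx9. Esrrg and Nr4a2 were lower in both sections, and Pou4f1, the factor that defines medial habenula neurons, was at 0 UMIs in members of both.

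Genes of the relay nuclei were low. Of 10, 6 at 3 days and 8 at 28 days were at least 2-fold lower (medians -1.42 and -2.14), and against thalamic bins 8 were lower in each section (-1.98 and -2.63). Prkcd stood at 141 against 369 CPM at 3 days and 127 against 607 at 28 days. Pvalb (parvalbumin), Cplx1 (complexin 1), Vamp1 and Kcnab3 were lower in both sections. Necab1, a neuronal calcium-binding protein of the same list, was the exception, with 788 CPM against 210 and 857 against 318, log2 ratios of 1.91 and 1.43.

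Genes of other neighbours were lower still, with exceptions. All 6 reticular nucleus genes at 3 days and 5 of 6 at 28 days were lower (medians -3.61 and -3.54), among them Gad1, which makes GABA, at 8 and 3 UMIs in members. Against thalamic bins the median was -0.44 over 6 genes at 3 days and 0.92 over 2 at 28 days. Habenula genes were lower in 6 of 8 and 8 of 9 (medians -2.40 and -4.84, or -2.58 at 28 days with the genes at 0 set to 3 UMIs). Against thalamic bins the habenula median turned to 0.07 at 3 days and was -2.67 at 28 days, over 3 genes each. Gpr151, an orphan receptor of habenula neurons, was higher at 3 days, at 31.4 against 7.05 CPM, and level with the remaining bins at 28 days, at 33.7 against 33.3. Against thalamic bins Gpr151 had log2 ratios of 3.24 and 3.27. Bins rich in Gpr151, Nwd2 and Tac2 had been taken out of the thalamic bins and not out of the members. That choice pushes these ratios and the habenula medians against thalamic bins upward, so they are no result about the members. Hypothalamic genes were lower in 8 of 10 and 7 of 9 (medians -4.33 and -3.78, or -3.68 and -3.39 with genes at 0 set to 3 UMIs), and against thalamic bins the medians were 0.43 over 4 genes and -0.48 over 2.

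**Figure D4:**
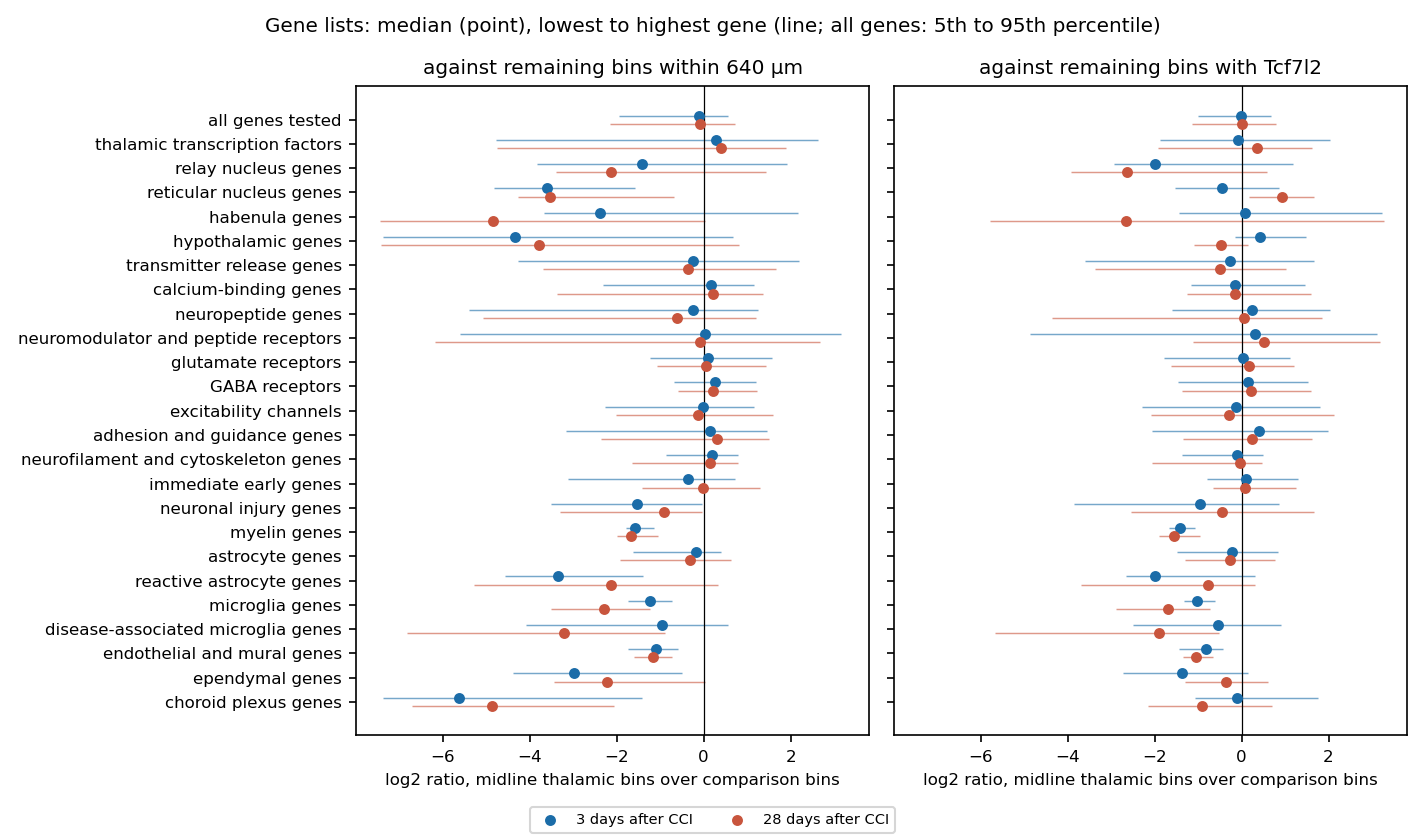
Median log2 ratio (points) and lowest to highest gene (lines; 5th to 95th percentile for all genes) of the gene lists in midline thalamic bins over all remaining bins within 640 µm (left) and over remaining bins with Tcf7l2 (right), for each section. Relay nucleus and myelin genes are low in both panels, while the choroid plexus median, -5.63 and -4.86 on the left, is -0.11 and -0.91 over 3 genes on the right.

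Receptors for modulators and peptides, the longest list, differed from gene to gene. At 3 days 10 of 37 were at least 2-fold higher and 6 lower, with a median of 0.02. At 28 days 7 of 33 were higher and 6 lower, with a median of -0.08. Against thalamic bins 12 of 29 and 7 of 21 were higher, and 1 and 2 lower.

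Among opioid receptors, Oprm1, the mu receptor, stood at 194 CPM in members against 70.9 in the remaining bins at 3 days and 203 against 93.3 at 28 days, log2 ratios of 1.45 (1.31 to 1.59) and 1.13 (0.91 to 1.33). Oprk1, the kappa receptor, stood at 27.3 against 7.92 and 24.8 against 4.69 CPM. The delta receptor Oprd1 had 1 and 0 UMIs in members. The remaining bins held Oprd1 at 3.17 and 2.12 CPM, and at 28 days this was under the floor of 3 UMIs in members, so no ratio is given there.

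Receptors of dopamine and serotonin showed a similar spread. Drd2 had 100 and 41 UMIs in members and log2 ratios of 1.33 (0.98 to 1.65) and 1.45 (0.92 to 1.92). Drd3 had 35 and 8 UMIs in members, 11.2 against 1.26 CPM and 7.93 against 1.31. Drd1, by contrast, had log2 ratios of -0.10 (-0.84 to 0.51) and 0.78 (-0.56 to 1.75), whose intervals include 0. Htr7, a serotonin receptor, had 1.49 and 1.43, while Htr2a had 2 and 0 UMIs in members.

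Among peptide and lipid receptors, Galr1, a galanin receptor, stood at 45.2 against 7.83 CPM and 34.7 against 5.50, log2 ratios of 2.53 and 2.67. Cnr1, the cannabinoid receptor, stood at 109 against 35.0 CPM and 101 against 38.0, and against thalamic bins its log2 ratios were 2.80 and 3.18. Tacr3, the neurokinin B receptor, had 1.66 and 2.12. Oxtr, the oxytocin receptor, had 33 and 11 UMIs in members and log2 ratios of 1.94 (1.28 to 2.56) and 2.73 (1.53 to 3.75).

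Glutamate and GABA receptors differed little as lists, with medians of 0.09 and 0.06 for 23 glutamate receptors and 0.27 and 0.21 for 14 GABA receptors. Of the glutamate receptors 1 and 3 were past 2-fold upward and 1 and 1 downward, and of the GABA receptors 2 and 3 upward and 0 downward. Grm2, a metabotropic receptor that lowers transmitter release, stood at 205 against 69.0 CPM and 219 against 81.7. Grin3a had log2 ratios of 0.99 and 1.24. Grin2c was lower, with -1.23 and -1.07. Among alpha subunits of the GABA-A receptor, Gabra2 (1.06 and 1.24), Gabra5 (1.20 and 1.01) and Gabra3 (0.95 and 1.03) were higher. Against thalamic bins Gabrd, the delta subunit, had -1.47 and -1.37.

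Ion channels that set excitability had medians of 0.00 and -0.13 over 26 genes, with 1 and 3 past 2-fold upward and 4 and 4 downward. Hcn2, a pacemaker channel, was lower in members, at 393 against 644 CPM at 3 days and 327 against 654 at 28 days. Kcnq5 had log2 ratios of 1.15 and 1.39, and Kcna1 -1.58 and -2.01. Against thalamic bins Hcn2 had -1.03 and -1.27.

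Among genes of release, peptides and calcium binding, the vesicular glutamate transporters also split. Slc17a8 (VGLUT3) had 29 and 17 UMIs in members and log2 ratios of 2.20 and 1.67, and Slc17a7 (VGLUT1) had -2.57 and -3.70. Bdnf, a neurotrophin, stood at 66.7 against 27.9 CPM and 88.2 against 38.4. Hpcal4, a calcium sensor, had 1.15 and 1.35. Medians of the lists were -0.24 and -0.35 for transmitter release genes, -0.25 and -0.62 for neuropeptide genes, and 0.17 and 0.22 for calcium-binding genes. Of 11 transmitter release genes 2 were past 2-fold upward and 4 downward in each section. Of 14 neuropeptide genes 1 was upward in each section and 5 and 6 downward. Of the calcium-binding genes 2 of 11 and 1 of 10 were upward and 3 downward in each section.

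Adhesion and guidance genes had medians of 0.15 and 0.31, with 3 of 33 past 2-fold upward in the first section and 4 in the second, and 4 and 5 downward. Over all genes 1.83% and 2.47% were upward and 13.1% and 14.1% downward. Cbln4, a secreted synapse organiser, stood at 75.4 against 27.7 CPM and 114 against 56.3. Cdh7, a cadherin, had log2 ratios of 1.27 and 1.09, and Cbln1 -1.40 and -1.18. Of 11 neurofilament and cytoskeleton genes (medians 0.18 and 0.14) 0 were past 2-fold upward, and 0 and 2 downward. Gap43 (0.79 and 0.77) and Stmn2 (0.73 and 0.79), genes of axon growth, were higher, and the neurofilament genes Nefm (-0.87 and -1.64) and Nefh (-0.51 and -1.19) lower. Of the immediate early genes, which neurons switch on with activity, Fos stood at 49.1 against 32.5 CPM at 3 days and 68.4 against 34.1 at 28 days. The list as a whole had medians of -0.35 and -0.02, with 0 of 13 and 2 of 11 past 2-fold upward and 4 and 2 downward.

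Glial and vascular genes were lower in members, with astrocyte genes as the exception. All 10 myelin genes were at least 2-fold lower in both sections (medians -1.58 and -1.67), and against thalamic bins 10 and 9 of 10 were (-1.41 and -1.55). Mbp stood at 444 against 1327 CPM at 3 days and 350 against 1256 at 28 days. Endothelial and mural genes had medians of -1.10 and -1.16, with 4 of 7 past 2-fold downward in each section. Ependymal genes had medians of -2.98 and -2.23, with 5 of 6 downward in each, and choroid plexus genes -5.63 and -4.86, with 6 of 6 (-4.98 and -3.85 with genes at 0 set to 3 UMIs). Astrocyte genes had medians near those of all genes, -0.17 and -0.32, with 1 of 11 past 2-fold downward in each section. Aqp4, the water channel of astrocyte endfeet, was the lowest at -1.63 and -1.93 and Itih3 the highest at 0.39 and 0.63.

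Genes of the glial reaction to injury were low. Gfap, the astrocyte filament, stood at 38.5 against 566 CPM at 3 days and 14.9 against 477 at 28 days, and against thalamic bins at 217 and 171 CPM its log2 ratios were -2.49 and -3.47. All 8 reactive astrocyte genes tested at 3 days and 5 of 7 at 28 days were at least 2-fold lower (medians -3.34 and -2.14, or -1.84 at 28 days with genes at 0 set to 3 UMIs). Microglia genes were lower in 10 of 12 at 3 days and 12 of 12 at 28 days (medians -1.24 and -2.29), and against thalamic bins in 7 and 10 of 12 (-1.03 and -1.70). Genes of disease-associated microglia had medians of -0.97 over 9 genes, 4 of them past 2-fold downward, and -3.22 over 10, 9 of them downward (-2.20 with genes at 0 set to 3 UMIs). Spp1 (osteopontin) was low at 28 days only, at 9.91 CPM in members against 206 in the remaining bins. At 3 days it stood at 11.9 against 10.4 CPM, log2 ratio 0.20 (-0.36 to 0.69). Cst7 was at 0 UMIs in members of both sections, against 2.70 and 56.4 CPM. Neuronal injury genes were lower in 5 of 7 at 3 days (median -1.54) and 3 of 6 at 28 days (-0.91). Jun stood at 56.5 against 128 CPM and 44.6 against 98.6, and Atf3 had 3 and 1 UMIs in members.

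Members were also set against named parts of the region, taken from the whole section. Relay bins, with at least 10 UMIs of Tnnt1 plus Prkcd in the block, numbered 7567 and 5540. Of these, 3732 at 3 days and 3980 at 28 days lay within 640 µm of a member. Habenula bins, with at least 5 UMIs of Gpr151, Nwd2 and Tac2 and at least 1 of Gpr151, numbered 219 and 642. These 5 genes were left out of the values. Against relay bins 5.14% of all genes were at least 2-fold higher in members and 5.08% lower at 3 days, and 5.41% and 6.43% at 28 days, with medians of 0.06 and 0.05. The relay list had medians of -2.73 and -3.04 over 8 genes and the myelin list -1.63 and -1.72. Genes of the relay list chose the relay bins, which largely fixed the direction of that list. Galr1 stood at 45.2 CPM in members against 1.06 in relay bins at 3 days and 34.7 against 0.653 at 28 days, and Cbln4 at 75.4 against 4.02 and 114 against 2.83.

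Microglia genes differed from relay bins unequally in the 2 sections, with medians of -0.32 over 12 genes at 3 days and -2.09 over 10 at 28 days. Of the relay bins, 0 at 3 days and 433 (7.82%) at 28 days lay in the lesion zone. Against habenula bins 9.4% of all genes were at least 2-fold higher in members and 8.77% lower at 3 days, and 8.78% and 8.96% at 28 days, with medians of -0.08 and -0.09. The members were lower in all habenula genes tested, 5 and 6, with medians of -7.89 and -8.12. Genes of that list chose the habenula bins, which largely fixed this direction, so it is no result about the members. Pou4f1 was at 191 and 178 CPM in habenula bins. Of the 15 genes named as highest, Mcub and Syt10 were not distinguished from habenula bins at this depth. Mcub stood at 58.7 against 48.5 CPM at 3 days and 80.3 against 68.7 at 28 days, log2 ratios of 0.25 (-0.39 to 1.02) and 0.22 (-0.27 to 0.72). Syt10 had 0.62 (-0.00 to 1.39) and 0.20 (-0.26 to 0.67). Members were higher in Rora (337 against 43.6 CPM and 327 against 49.1), Necab1 (788 against 19.4 and 857 against 43.6) and GABA receptors (medians 1.73 and 2.18 over 14 genes). Cnr1 had log2 ratios of 0.22 (-0.25 to 0.76) and 0.34 (-0.10 to 0.80), so that a difference from habenula bins was not detectable at this depth, and Cbln4 was lower in members than in habenula bins.

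Members were not all alike. Joined through touching bins, they formed 47 patches at 3 days and 27 at 28 days, of which 3 and 4 held at least 50 bins. The largest patch of each section was the most dorsal, with 1303 bins centred 409 µm below the habenula at 3 days and 384 bins centred 347 µm below it at 28 days. Further down lay patches of 193 and 53 bins at 3 days (1289 and 1544 µm), and of 54, 185 and 96 bins at 28 days (784, 1103 and 1869 µm). Tcf7l2 was between 612 and 977 CPM in the patches of the first section and between 945 and 1237 in those of the second.

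The genes compared here between the dorsal patch and the ventral patches together were chosen after their values were seen. C1ql3 stood at 353 CPM dorsally, and 13.0 and 14.4 (4 and 1 UMIs) in the ventral patches, at 3 days. At 28 days it stood at 473 dorsally and 239, 277 and 282 ventrally. Rab3b, a vesicle GTPase, was 330 dorsally against 48.8 and 100.5 at 3 days, and 378.5 against 119, 171 and 217 at 28 days. Igkc was 112 CPM dorsally and 0 UMIs in both ventral patches at 3 days, and 161 against 85.2, 98.1 and 10.9 (5, 23 and 1 UMIs) at 28 days. All 3 genes were higher dorsally in both sections, and the gap was wider at 3 days.

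Cck, the cholecystokinin precursor, was higher in the ventral patches, at 674 and 545 CPM against 332 at 3 days. At 28 days it was 545 and 431 against 224, but 54.3 in the lowest patch. Car10, a carbonic anhydrase-related protein, was 534 and 474 CPM ventrally against 148 dorsally at 3 days, and between 119 and 174 against 98.3 at 28 days. Calb1 (calbindin) was 1107 and 789 CPM ventrally and 404 dorsally at 3 days but between 276 and 311 in all 4 patches at 28 days. Necab2 was 464 CPM dorsally and at most 57.4 ventrally at 3 days, and between 315 and 529 at 28 days. Calb1 and Necab2 thus separated the patches at 3 days and not at 28 days.

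Fos also varied by position. It was 60.7 CPM in the dorsal patch and 6.51 and 0 in the ventral patches at 3 days, and 102 dorsally and 34.1, 17.1 and 43.4 ventrally at 28 days. Among receptors, Drd2 and Cnr1 varied in the same direction at 3 days, with Drd2 at 39.8 CPM against 6.51 and 0 and Cnr1 at 133 against 16.3 and 43.1. Both were picked after their values were seen, and the rest of the receptor list is not given by patch. The ventral patches summed to only 307241 and 69670 UMIs at 3 days, and 58692, 234363 and 92092 at 28 days. Low CPM values of Fos, Drd2 and Cnr1 there therefore rest on few UMIs. The lowest patch at 28 days, 96 bins and 92092 UMIs in all, held Oxt (oxytocin) at 97.7 CPM, Otp at 21.7 and Ecel1 at 130. These are genes of hypothalamic neurons or found there, and their levels in so small a sum rest on few UMIs. Tcf7l2 in this patch was 945 CPM.

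Between the 2 sections the members differed in few genes. Of 9630 genes with at least 50 UMIs, 16 (0.166%) had over 2-fold more at 28 days and 57 (0.592%) less. The genes with the most extreme ratios were taken from a wider set, with at least 200 UMIs over members and remaining bins of both sections, and held too few UMIs in members to be among the 9630. The highest were Slc4a5 (0 UMIs at 3 days and 4 at 28 days), Nxph4 (0 and 2), Htr5b, Ccdc3 and Agbl2 (0 and 1 each). The lowest were Slc10a3 (31 and 0), B3gnt4 (19 and 0), Alk (18 and 0), Prom1 and Selplg (17 and 0 each). Genes whose ratio moved furthest from that of the remaining bins included the same kinds, such as Lrg1, Calcr and Crh (0 or 1 UMI in members) and C3ar1 (17 and 0).

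Among genes with at least 200 UMIs in the members of the 2 sections, chosen after their values were seen, differences were modest. Marcksl1, an actin-binding protein, stood at 49.4 CPM at 3 days and 92.2 at 28 days, a log2 ratio of 0.90 (0.51 to 1.28), against 0.02 in the remaining bins. Sulf1, a heparan sulfate sulfatase, stood at 53.6 and 94.2 CPM, and Rftn1 at 41.1 and 73.3. Tshz2, a zinc finger transcription factor, was the other way, at 87.6 and 42.6 CPM, a log2 ratio of -1.03 (-1.54 to -0.57). Tnnt1 stood at 59.4 and 28.7, and Rgs4, a brake on G protein signalling, at 232 and 122, log2 ratios of -1.03 and -0.92. Gpr37l1, an astrocyte receptor, stood at 197 and 106 CPM, and Nefm at 87.0 and 49.6.

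Gene lists were also set side by side between the sections. Over all genes, 4808 of 9630 were above 0 in members, with a median of 0.00. All 7 immediate early genes tested were above 0 in members (median 0.41), while the remaining bins had a median of -0.03. Npas4, a factor that neurons induce with activity, stood at 22.5 and 42.6 CPM, log2 ratio 0.93 (0.34 to 1.49), and 0.74 (0.11 to 1.35) above that of the remaining bins. Egr1 stood at 83.7 and 111 CPM. Fos had 0.48 (0.05 to 0.90), and its difference from the remaining bins, 0.42, had an interval from -0.05 to 0.86. The difference was therefore not detectable at this depth for Fos.

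Microglia genes had medians of opposite sign in members and surroundings, -0.74 over 6 genes and 0.39 over 12, so the sets of genes differed. In the largest patch alone the median of members was -0.33 over 5 genes. C1qa had a log2 ratio of -0.82 (-1.49 to -0.24) in members and 0.94 (0.87 to 1.01) in the remaining bins. Tyrobp had -1.24 (-2.50 to -0.30) and 0.91 (0.81 to 1.02). Genes of disease-associated microglia had a median of -0.21 over 4 genes in members, and a median of 0.98 in the remaining bins, where 5 of 10 passed 2-fold upward, against 91 of 13516 of all genes (0.673%, with 0.91% downward). Spp1 had -0.21 (-1.43 to 0.78) in members and 4.30 (4.11 to 4.50) in the remaining bins. Myelin genes had medians of -0.24 and -0.09. The 28 days surroundings also held more of the lesion zone, as given above, and more habenula, with all 9 habenula genes at least 2-fold higher, against the same 0.673% of all genes.

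The study placed the injury on the right, and in the data the injured side was taken as the side of the line with the higher CPM of the 6 phagocyte genes over all kept bins. Members on the injured side (1210 and 543 bins) were set against those on the opposite side (636 and 255). At 3 days 27 of 8890 genes (0.304%) were at least 2-fold higher on the injured side and 8 (0.09%) lower. At 28 days 31 of 4962 (0.625%) were higher and 17 (0.343%) lower. These counts moved with the line between the sides. Moved by 5 bins either way, it gave 108 or 11 higher genes at 3 days and 240 or 7 at 28 days. At 3 days the planned measure of mirror symmetry had picked the other array axis, and the line used was set by hand. A line along that other axis gave 100 higher and 102 lower genes at 3 days, so the excess of higher genes there depended on the line. The 6 phagocyte genes summed to 65.1 CPM in members of the injured side and 68.3 on the opposite side at 3 days, and to 38.1 and 35.9 at 28 days. In the remaining bins they summed to 177 and 103, and to 300.3 and 59.5, a direction that the choice of side largely fixed. Microglia genes of the remaining bins, given below, share that limit.

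Over all genes tested in members, 4379 of 8890 were above 0 at 3 days and 2441 of 4962 at 28 days, with medians of 0.00 and -0.01. At 3 days the largest part of the members lay on the injured side of the line. Habenula genes of the remaining bins were at least 2-fold lower on that side in 8 of 8 (median -2.47), against 1.05% of all genes there (1.87% were higher), and the habenula bins seen in the map lay mostly on the opposite side. Among genes with at least 100 UMIs over both sides, the highest on the injured side were Zbtb8os (40.1 against 18.6 CPM, 1.08), Vwa5b1 (0.94), Cpsf4 (0.93), Noct (0.93) and Dleu7 (0.90). The lowest of the same set were Apod, a lipid carrier (113 against 220.5 CPM, -0.96), Pard6a (-0.89), Cxcl12 (-0.87), Dnajc1 and Sptlc2 (both -0.82). Medians were 0.11 for microglia genes and 0.03 for astrocyte genes, against 0.53 and 0.07 in the remaining bins. Myelin genes were lower on the injured side in 9 of 9 tested in members (median -0.32), and in the remaining bins their median was 0.25. That direction in members depended on the line, since moving it by 5 bins gave medians of -0.70 or 0.17 for myelin genes in members. It gave -0.77 or 0.22 for relay nucleus genes (-0.06 at the line used) and 0.24 or -0.29 for astrocyte genes. A line along the other array axis gave -0.93 for relay nucleus genes, -0.57 for myelin genes and -0.16 for astrocyte genes.

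At 28 days astrocyte genes were higher on the injured side of the members, in 9 of 10 tested, with a median of 0.70 against 0.18 in the remaining bins. Gja1, the gap junction protein connexin 43, stood at 259 against 134 CPM, log2 ratio 0.94 (0.45 to 1.48), and Ntsr2 at 116 against 29.4, 1.91 (0.97 to 3.16). With the line moved 5 bins the median was 0.66 or 0.15, and Gja1 was 0.46 or 0.38. Prkcd was the lowest gene of those with at least 100 UMIs over both sides, at 69.8 against 271 CPM, -1.95 (-2.52 to -1.41), and was -3.31 or -0.53 with the line moved. Relay nucleus genes were lower in 6 of 6 (median -0.76, or -1.14 and -0.11 with the line moved) and myelin genes in 6 of 7 (-0.71, or -1.06 and -0.34). A line that cuts the patches unevenly and a difference between the sides cannot be told apart here.

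Other genes named at 28 days were Snd1 (141 against 62.1 CPM), Cacnb2, Fmn2 and Zfp462 on the high side, and Fez1 (85.7 against 173 CPM), Car11 and Mpnd on the low side. Microglia genes in the remaining bins had a median of 2.25 on the injured side, with 10 of 12 at least 2-fold higher, against 573 of 12542 of all genes there (4.57%, with 0.399% lower). In members 1 microglia gene had enough UMIs for a value. Gfap had 0.18 (-1.51 to 2.41) in members and 2.64 (2.55 to 2.73) in the remaining bins, at 15.9 against 13.1 CPM and 881 against 142.

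**Figure D5:**
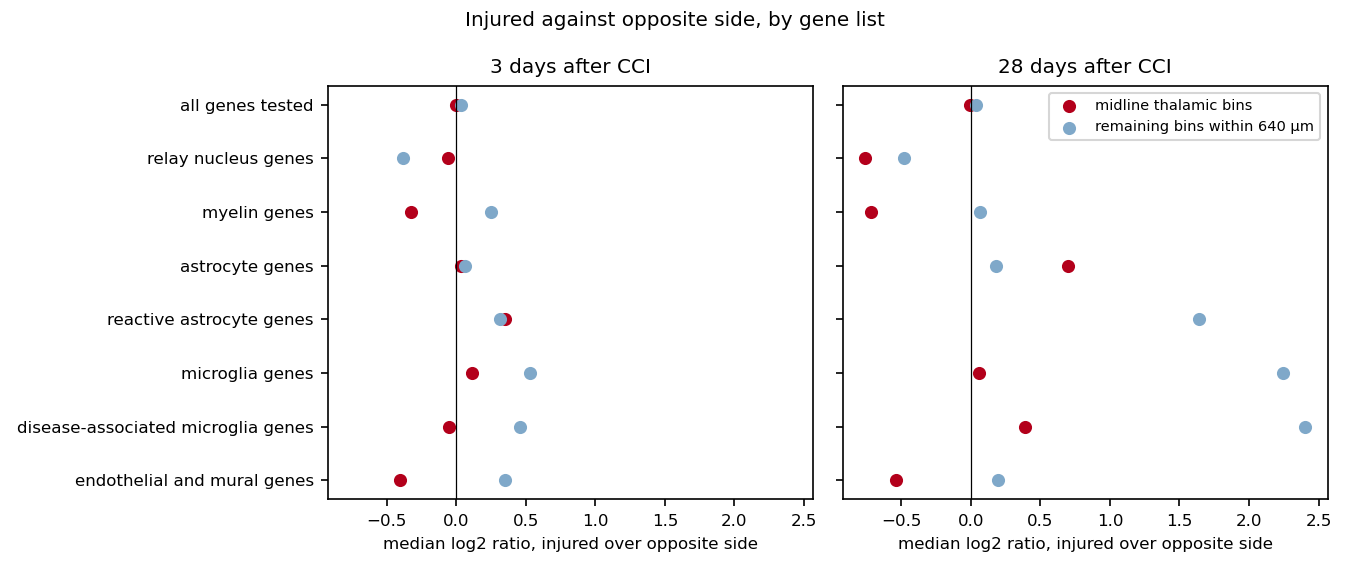
Median log2 ratio of the injured over the opposite side for 8 groups of genes in midline thalamic bins (red) and in the remaining bins within 640 µm (blue), for each section. At 28 days the blue points of the microglia lists lie at 2.25 and 2.41 and the red points, over 1 gene each, nearer to 0, while astrocyte genes are higher in red, at 0.70.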

How the data were processed

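The authors deposited UMI counts per gene and 16 µm bin, made with Space Ranger 4.0.1 per the file headers with the mouse probe set (mm10 per the labels' processing notes), for 19070 genes of 2 sections. The members and gene lists were chosen with earlier results of these data known. Sums of UMIs over each set of bins were turned into CPM and then into log2 ratios, adding 0.5 UMI to each sum. Counts of genes and list medians took genes reaching 50 UMIs in the pair of sums, and 95% intervals were exact and conditional on the pair's total (differences of ratios combined the bounds). A gene counted as higher or lower past 2-fold, with no test. Named genes were, past a minimum of UMIs, the extremes of the ratio nearer to 0 of the 2 sections (15 high, 10 low), of the section and side ratios (5 each way), and the highest and lowest of each of 24 lists, of which a selection is printed. 4 listed genes were not analysed here. Some genes that the rule names are not reported here. The line between the sides ran through the median Gbx2 position along the array columns. The mirror correlation meant to pick its axis gave the rows at 3 days (0.363 against 0.232), so the column line was set by hand. Tools were R 4.3.3 with edgeR 4.0.16 (TMM factors only), matplotlib 3.10.9, scipy 1.17.1, pandas 2.3.3 and numpy 2.4.6 under Python 3.11.15. The scripts were tested on simulated data.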

Additional observations from a re-analysis of the deposited data

How the results depend on the processing

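No paired analysis was possible because each group had 1 section. Counts of genes past 2-fold depended on the surroundings, the minimum and the pseudocount. With remaining bins within 20 bins, 1048 genes were lower at 3 days, and 192 were higher and 955 lower at 28 days. With no minimum of UMIs, 1850 were higher and 2770 lower at 3 days, 3258 higher and 2272 lower at 28 days, and 1092 higher and 793 lower between the sections. With a pseudocount of 5 UMIs, 983 were lower at 3 days, and 705 higher and 525 lower at 28 days. Against thalamic bins, an alternative added after seeing the data, 599 and 696 were lower. The largest patch alone gave 30 higher genes between sections. Between the sides, the line moved 5 bins gave 108 higher and 48 lower, or 11 higher, at 3 days, and 240 higher and 113 lower, or 7 and 26, at 28 days. The line along the other axis, which the planned mirror correlation had picked at 3 days, gave 100 and 102 there. The column line was the choice made later. The stricter rule of 5 and 15 UMIs gave 16 lower genes at 3 days and 20 higher and 7 lower at 28 days. The cause of these shifts was not tested, beyond fewer or more bins and genes entering.

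Of 1401 values of single genes and lists, 1177 were counted as staying within a spread around the reported value. A further 217 moved outside it and 7 that were past 2-fold changed sign. List medians have no counting interval, and the spread used for them could be wide. The relay nucleus median between the sides at 28 days went from -0.76 to -0.11 and was still counted as staying. Values under 2-fold could also change sign, as the side medians at 3 days did. The hypothalamic median at 3 days was 0.98 in the largest patch and 0.43 against thalamic bins. Against thalamic bins the habenula median at 3 days was 0.071, the reticular median at 28 days 0.92 and Trh at 3 days 0.34. The habenula value there follows in part from the choice of those bins. Between sections Tac2 was 0.18 under the stricter rule and Alk 0.62 in the largest patch, each on 1 UMI. TMM scaling shifted all log2 ratios by 0.07, 0.05 and -0.01. Members summed to 3116619 and 1008918 UMIs, so a gene under 50 UMIs there gave wide intervals.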
